A study of Mus musculus with 30 samples.

Results

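Genes for 10 proteins that switch the Arf GTPases off or on were followed in the hippocampus of socially isolated (SI) and group-housed (GH) mice, out of 17477 genes in the count table. They were chosen by name around Agap1, which was selected on its lower level in SI than in GH mice, so the SI against GH values of these genes are given as a description and carry no test of their own. All 10 were found by Ensembl identifier and all 10 passed the filter on low counts in each sex. The 7 GTPase activating genes were Agap1, Agap2, Agap3, Asap1, Asap2, Git1 and Git2, and the 3 exchange factor genes were Iqsec1, Iqsec2 and Iqsec3.

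RNA was sequenced from the frozen hippocampus of 30 adult C57 BL/6J mice with no engineered allele named. From weaning until adulthood, 8 females and 7 males were housed alone, and 7 females and 8 males stayed in group cages. The labels give every mouse a number of its own, and females carry numbers 41 to 79 and males 1 to 39. The counts behind a mouse summed to between 18809307 and 100844898, and the lowest count of any of the 10 genes in any mouse was 266 (Asap2). The median total was 25609585 in SI and 49542256 in GH males, and 43484444 in SI and 39728004 in GH females.

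Arf proteins are small GTPases that recruit coats and lipid kinases to Golgi, endosomal and plasma membranes. A guanine nucleotide exchange factor (ArfGEF) loads an Arf with GTP and so turns it on, and a GTPase activating protein (ArfGAP) speeds the hydrolysis of that GTP and turns it off. In neurons the cycle of Arf6 is known for its part in receptor endocytosis, recycling and the shaping of dendritic spines.

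On the reference assembly NCBIM37, Agap1 (ENSMUSG00000055013) lies on chromosome 1 from 91351381 to 91791857 on the plus strand. Agap2 (ENSMUSG00000025422) lies on chromosome 10 from 126515963 to 126530225, also on the plus strand, and Iqsec3 (ENSMUSG00000040797) on chromosome 6 from 121322948 to 121423696 on the minus strand. Iqsec2 is the X-linked member. The longest annotated transcript ran from 3207 bases for Agap3 to 9581 bases for Agap1. Asap2 overlaps Itgb1bp1 and Git2 overlaps Ankrd13a on the opposite strand, and since the use of strand in the counting is not given in the sources used here, reads of these pairs may not be told apart.

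The promoters of Agap1, Agap2 and Iqsec3 are shown because Agap1 was the starting point and the other two were the members called lower in SI females. Each window is the 250 bases before the RefSeq transcript start on GRCm38.p6, read 5′ to 3′ on the strand of the gene, with every GGGCGG or its reverse complement (a GC box) in capitals. Agap1 is chr1:89454561-89454810 on the plus strand, Agap2 is chr10:127078657-127078906 on the plus strand and Iqsec3 is chr6:121473679-121473928 on the minus strand.
Agap1: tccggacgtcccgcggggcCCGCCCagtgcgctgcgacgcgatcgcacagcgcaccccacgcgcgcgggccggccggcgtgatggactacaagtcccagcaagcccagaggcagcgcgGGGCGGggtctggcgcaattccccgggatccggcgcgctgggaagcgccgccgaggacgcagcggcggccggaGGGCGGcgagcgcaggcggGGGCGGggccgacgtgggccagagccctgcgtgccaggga
Agap2: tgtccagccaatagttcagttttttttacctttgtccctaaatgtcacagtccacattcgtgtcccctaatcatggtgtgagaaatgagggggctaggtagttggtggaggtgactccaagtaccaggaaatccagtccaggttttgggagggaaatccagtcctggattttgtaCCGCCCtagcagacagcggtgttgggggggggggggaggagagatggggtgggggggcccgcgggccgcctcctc
Iqsec3: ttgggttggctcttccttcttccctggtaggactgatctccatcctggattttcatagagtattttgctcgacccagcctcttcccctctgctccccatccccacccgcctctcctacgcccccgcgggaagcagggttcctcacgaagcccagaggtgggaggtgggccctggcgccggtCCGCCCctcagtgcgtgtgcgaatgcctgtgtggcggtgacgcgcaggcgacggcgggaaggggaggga
The 3 windows differed in make-up, with 41 CpG dinucleotides for Agap1, 17 for Iqsec3 and 6 for Agap2, against a median of 6 over 32851 promoter windows. The Agap1 window held 4 GC boxes and the Agap2 and Iqsec3 windows 1 each. RefSeq promoters were matched for 8 of the 10 genes in 12 windows, of which 11 held a GC box, as did 32.7% of all windows. These 12 are not all separate sequences, since the Git2 windows nearly coincide and the Git1 windows overlap. No window of the 8 genes held TGACGTCA, CACGTG, GCGTGGGCG or TATAAA on either strand, which 1.55%, 6.02%, 0.536% and 12.4% of all windows held. These matches describe the letters only.

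Levels were compared between genes as CPM, the counts scaled to a common library total (normalised by the trimmed mean of M values, TMM), per kb of longest transcript. Agap2, also known as PIKE, a GAP that also carries a GTPase-like domain, stood highest at 336 ± 65.0 CPM per kb (SD, n = 30) and above 99.0% of the genes with a length. Git1, a scaffold that holds the exchange factor PIX at synapses and focal adhesions, followed at 171 ± 30.4, and Agap3, a protein of the NMDA receptor complex, at 119 ± 11.1. Agap2 lay above Git1 in 30 of 30 mice and Git1 above Agap3 in 28 of 30.

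The 3 Iqsec genes came next and close together. Iqsec2, whose product sits in the postsynaptic density, had 44.6 ± 10.7 CPM per kb, Iqsec3, a factor of inhibitory synapses that binds gephyrin, 40.3 ± 11.0, and Iqsec1, an Arf6 exchange factor of AMPA receptor endocytosis, 39.1 ± 5.99. Neighbours in this stretch did not separate beyond their spread, with Iqsec2 above Iqsec3 in 24 mice and Iqsec3 above Iqsec1 in 19. Agap1, which binds the AP-3 coat of endosomes, and Asap1, a BAR and SH3 domain GAP of the actin cortex, were level with each other at 16.5 ± 3.56 and 16.4 ± 2.91, and Agap1 was the higher in 16 of 30 mice. Asap2 at 6.20 ± 1.49 and Git2 at 5.83 ± 0.420 closed the order, and Asap2 was the higher in 23 mice.

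**Figure D1:**
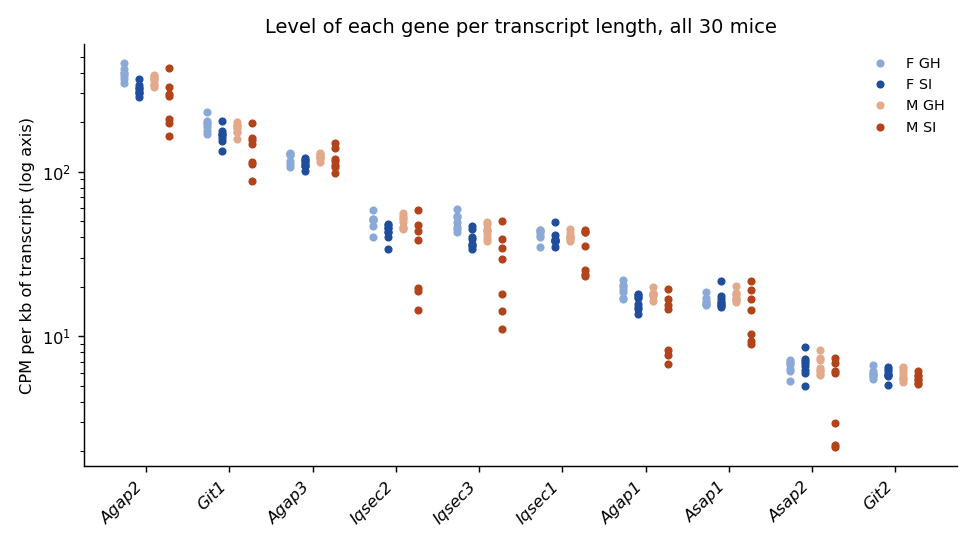
CPM per kb of longest transcript on a log axis for each gene, from the highest mean to the lowest, with 1 point per mouse coloured by group (F female, M male). Levels run from a mean of 336 for Agap2 to 5.83 for Git2, and the low male SI points of 8 genes other than Agap3 and Git2 come from animals 25, 33 and 39.

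Of the SI males, 3 (animals 25, 33 and 39) stood apart from the other 27 mice in the share of counts on long transcripts. Their counts summed to 18809307 to 25609585, against 33433048 to 66575824 in GH males, while SI male 8, not 1 of the 3, had 19349259. Transcripts over 5000 bases held 14.2% to 14.9% of their counts, against 18.3% to 24.7% in the other mice, and 7 of the 10 members have transcripts over that length. The summed CPM of 6 neuron markers was 4141 to 4503 in the 3 and 5263 to 6042 in GH males, that of 5 oligodendrocyte markers was 7250 to 9776 against 5017 to 6628, that of 5 microglia markers 376 to 438 against 273 to 330, and that of 5 endothelial markers 228 to 283 against 143 to 205. The lists did not all move alike, since 3 CA3 pyramidal neuron markers summed to 174 to 208 in the 3 and 121 to 160 in GH males, 5 astrocyte markers to 1324 to 1486 against 1489 to 1948, and the sums of 3 CA1 markers, 334 to 398, lay within the range of GH males. The oligodendrocyte and astrocyte sums did not set the 3 apart from all other mice. GH females reached 8182 CPM for oligodendrocyte markers. For astrocyte markers SI males 38 and 7 had 1314 and 1341 CPM and SI female 45 had 1361. In bulk tissue, fewer cells of a type and less RNA per cell cannot be told apart. Choroid plexus markers (Ttr and 6 others) summed to between 39.3 and 4928 CPM over the 30 mice, while the dentate gyrus, CA1 and CA3 markers, which mark subfields of the hippocampus, were detected in every mouse. The part of these differences in the members' values was not tested, and each male Log2FC of a member is given with and without the 3 mice.

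Agap1 was lower in SI than in GH mice of both sexes, which is what it was picked for. It had 161 CPM in the lowest GH female, 185 in the median and 211 in the highest, and 131, 157 and 172 in the SI females. The female groups overlapped, and 4 of 8 SI females lay below every GH female. The Log2FC (SI against GH, with 3 surrogate variables in the model) was -0.20 ± 0.0557 (SE). In males, GH mice had 156, 172 and 192 CPM and SI mice 65.0, 140 and 187, with a Log2FC of -0.25 ± 0.0759. The 3 SI males that stood apart held 65.0 to 79.4 CPM and the other 4 SI males 140 to 187, of which 2 lay below every GH male. Without animals 25, 33 and 39 the Agap1 Log2FC of males was -0.11 ± 0.0460. That fit held 4 SI and 8 GH males and had 4 surrogate variables of its own, against 2 with all males. Male values and SEs with and without the 3 mice thus differ in the model too, here and below.

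Among the other AGAP genes, Agap2 had the clearest gap in females. It had 1945, 2240 and 2572 CPM (lowest, median and highest) in GH females and 1598, 1774 and 2055 in SI females. All but 1 of the 8 SI females lay below the lowest GH female and 6 of the 7 GH females lay above the highest SI female. The Log2FC was -0.27 ± 0.0450. In males Agap2 ran over 1856, 2045 and 2179 CPM in GH mice and over 933, 1617 and 2389 in SI mice, so that 6 of 7 SI males were below every GH male while animal 8 was above all of them. The male Log2FC of -0.22 ± 0.0904 was -0.11 ± 0.0306 without animals 25, 33 and 39. Agap3 differed less, with medians of 403 CPM in GH and 363 in SI females and a Log2FC of -0.10 ± 0.0419. In males the Agap3 value was 0.03 ± 0.0735 with all mice and -0.10 ± 0.0348 without the 3. The medians of CPM, which carry no surrogate variables, ran the other way. They were 399 in GH males, 372 in all SI males and 417 in SI males without the 3.

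The ASAP genes had female differences close to 0. Asap1 had a Log2FC of 0.02 ± 0.0507 in females and -0.02 ± 0.0674 in males, and Asap2 0.03 ± 0.0535 and -0.12 ± 0.0524. The median of Asap2 was 38.2 CPM in GH and 38.3 in SI females. Without animals 25, 33 and 39 the male values were -0.07 ± 0.0817 for Asap1 and -0.08 ± 0.0638 for Asap2. The median CPM of those SI males was not lower, at 82.6 against 79.9 in GH males for Asap1 and 36.8 against 36.1 for Asap2. Asap2 was low in the 3 males apart, at 12.01 to 16.8 CPM against 33.9 to 42.0 in the other 4 SI males, which lay within the range of the GH males, 33.1 to 46.7.

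Git1 and Git2 are paralogs that share partners. Git1 had 597, 689 and 812 CPM in GH females and 470, 593 and 714 in SI females, with 4 of 8 SI females below every GH female and a Log2FC of -0.19 ± 0.0630. In males its Log2FC was -0.25 ± 0.0889 with all mice and -0.17 ± 0.0411 without animals 25, 33 and 39, the largest such value of the 10 genes in size. Git2 had 27.8 to 33.4 CPM in GH females and 25.3 to 32.8 in SI females, and Log2FC values of -0.01 ± 0.0406 in females and -0.04 ± 0.0658 in males (0.00 ± 0.0798 without the 3). Of the 10 genes it was the least spread over mice, and the 3 males apart, at 25.8 to 29.2 CPM, reached into the range of GH males, 26.6 to 32.9.

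Of the exchange factors, Iqsec3 had the largest difference in size in both sexes. It had 322, 371 and 441 CPM in GH females and 252, 281 and 347 in SI females, 6 of 8 SI females lay below every GH female, and the Log2FC was -0.29 ± 0.0492. In males the values were 283, 328 and 370 CPM in GH mice and 82.7, 221 and 374 in SI mice, with a Log2FC of -0.38 ± 0.118 and, without the 3 mice apart, of -0.13 ± 0.0443. Animal 8 again lay above every GH male. Iqsec2 had medians of 308 CPM in GH and 266 in SI females and a Log2FC of -0.17 ± 0.0479. Its male value of -0.24 ± 0.0803 was -0.09 ± 0.0403 without the 3. Iqsec1 had medians of 279 and 248 CPM in GH and SI females, where the groups overlapped from end to end, and Log2FC values of -0.08 ± 0.0464 in females and -0.04 ± 0.0592 in males, or -0.08 ± 0.0472 without the 3. Without the 3, the median Iqsec1 level of SI males was nonetheless the higher, at 280 CPM against 261 in GH males.

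**Figure D2:**
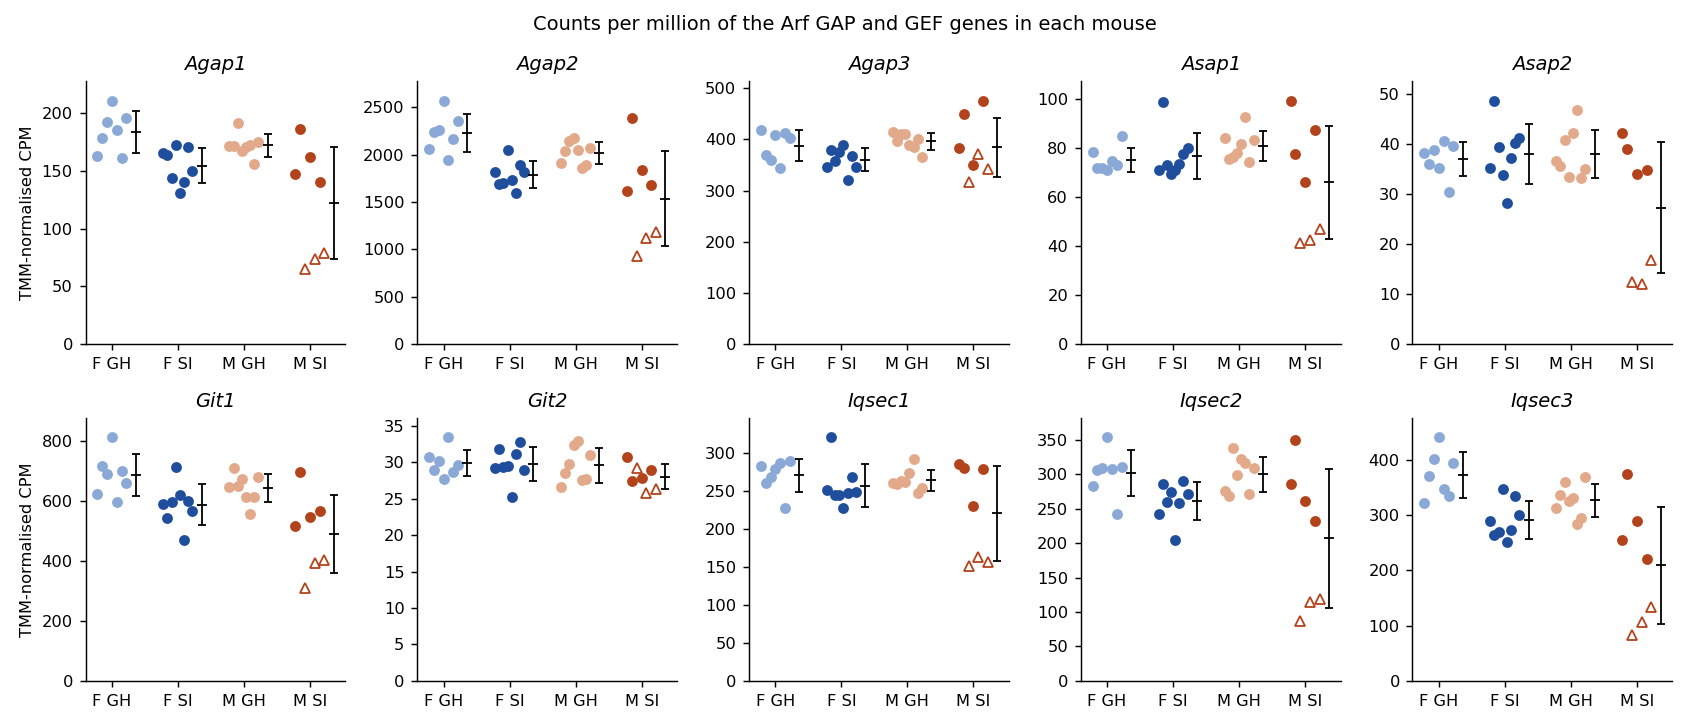
TMM-normalised CPM of each gene, with 1 point per mouse in the 4 groups and the mean and SD beside them, the mean and SD covering all mice of a group. Open triangles are SI males 25, 33 and 39, which hold 65.0 to 79.4 CPM of Agap1 against 140 to 187 in the other SI males. For Agap2 and Iqsec3 most SI females lie below the GH females.

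Over all genes, the test called 624 of 16026 genes in females (3.89%) at an adjusted p under 0.05 (Benjamini-Hochberg, quasi-likelihood test of edgeR), of which 470 were downregulated (2.93%). Among the members, Agap2 and Iqsec3 were downregulated and none was upregulated. At an unadjusted p under 0.05, 6 of 10 members were lower (Agap1, Agap2, Agap3, Git1, Iqsec2 and Iqsec3), against 11.0% of all genes. Since Agap1 was picked in this contrast and the rest gathered around it, nothing is read from these counts. The median Log2FC was -0.14 over the members and 0.01 over all genes tested. The members' count moved with the test used. DESeq2 with the same surrogate variables called 5 (Agap1, Agap2, Git1, Iqsec2 and Iqsec3), where 7.87% of all genes were called. The same 5 were called by limma-voom with sample weights and no surrogate variables (5.23% of all genes). They were also called by edgeR after each library's trend in transcript length and GC content was removed (9.45%). EdgeR with no surrogate variables called 0 members and 0 of all genes. Agap2 was called whichever of the 15 females was left out, and Iqsec3 was not called without SI female 45 (adjusted p = 0.0513, edgeR). With all 4 groups in 1 edgeR fit 2 members were again called, where 3.11% of all genes were. These were Agap1 and Agap2, and Iqsec3 was not called (adjusted p = 0.0517).

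In males edgeR called 0 of 15833 genes (0%) and so no member. At an unadjusted p under 0.05 the members below 0 numbered 6 (Agap1, Agap2, Asap2, Git1, Iqsec2 and Iqsec3), where 7.38% of all genes were lower at that limit. DESeq2 called 44 genes (0.278%) and no member, and without animals 25, 33 and 39 edgeR called 1 gene (0.00616%) and no member. With length and GC trends removed edgeR called 0 genes. An unadjusted p under 0.05 was then found for 3 members (Git1, Iqsec2 and Iqsec3), against 1486 of all 15833 genes. The male Log2FC was then -0.13 ± 0.0811 for Agap1, -0.18 ± 0.0944 for Agap2, -0.02 ± 0.0518 for Asap2 and -0.26 ± 0.0819 for Git1. The male calls turned on single mice. Without SI male 27, 6 members were called, in a fit that called 2414 genes in all. Agap1 and Iqsec2 were also called without SI male 38. Fits with 1 male left out called 0 to 2414 genes in all, and nothing is read from these member counts. No member had SI and GH groups free of overlap in either sex, which 0.187% of genes showed in the downward direction in females and 0.0253% in males. The median Log2FC of the members was -0.17 in males, and genes with transcripts over 5000 bases had a median of -0.08 in males, with 73.2% of them below 0, against 0.01 for shorter ones. In females the same medians were -0.01 and 0.01.

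**Figure D3:**
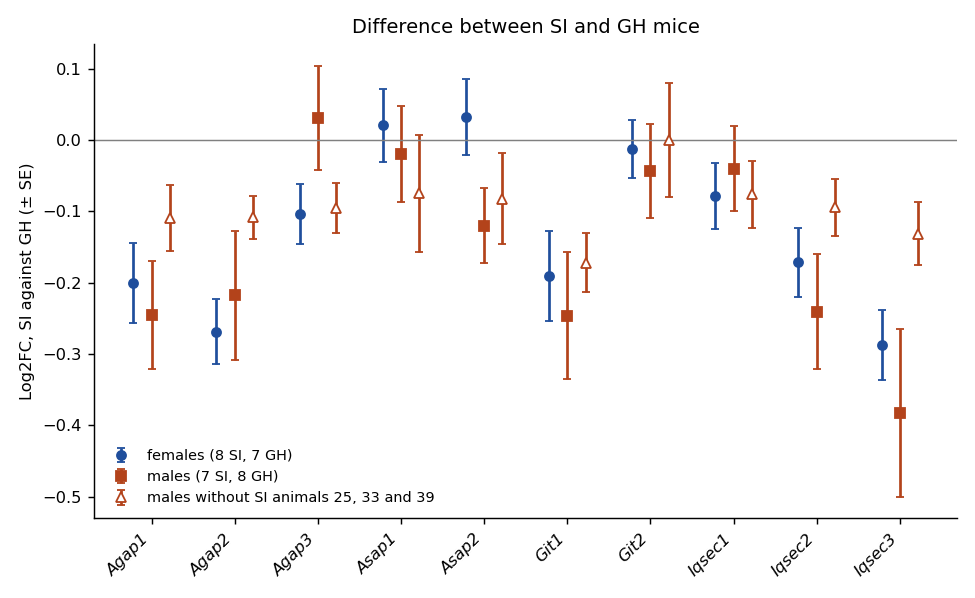
Log2FC of SI against GH mice with its SE for each gene, in females (circles), males (squares) and males without SI animals 25, 33 and 39 (open triangles). Iqsec3 is lowest in both sexes, at -0.29 and -0.38, and its male value is -0.13 without the 3 mice.

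Whether the housing difference was unlike between the sexes was asked in 1 model of all 30 mice. The choice of genes did not name this contrast. It is built from the same housing differences, though, and the members were chosen with earlier results of these data known. For Agap1, picked on its lower level in both sexes, the interaction is the difference of the values it was picked on, so its value is a description only. EdgeR called 0 of 16391 genes (0%) for the interaction, with 7.48% of genes at an unadjusted p under 0.05, and DESeq2 called 8 (0.0488%). No member was called by either tool, and with all 30 mice no member reached an unadjusted p under 0.05 in edgeR. Asap2 came nearest, with a female minus male difference in Log2FC of 0.12 ± 0.0675 (edgeR, adjusted p = 0.711). For Iqsec3 the difference was 0.06 ± 0.135, with a 95% interval of -0.21 to 0.32, and over 9 other settings it ran from -0.17 to 0.29. For Agap1 it was 0.0031 ± 0.0971 and ran from -0.13 to 0.25 over those settings, changing sign in 6 of them. Without animals 25, 33 and 39 the difference was -0.17 ± 0.0540 for Agap2 (edgeR, unadjusted p = 0.00365, adjusted p = 0.370) and -0.16 ± 0.0660 for Iqsec3 (unadjusted p = 0.0267, adjusted p = 0.502), again with no member called.

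Female and male GH mice were compared in the same model, another contrast the choice did not name, although the GH mice of each sex also serve as controls above. EdgeR called 1035 of 16391 genes (6.31%), and 26.4% had an unadjusted p under 0.05. Of the members 0 were called and 3 (Agap2, Git1 and Iqsec3) had an unadjusted p under 0.05, each higher in females. Agap2 was higher by a Log2FC of 0.20 ± 0.0632 (edgeR, adjusted p = 0.0544), with 1945 to 2572 CPM in GH females and 1856 to 2179 in GH males. Iqsec3 followed with 0.26 ± 0.0927 (adjusted p = 0.0784) and Git1 with 0.15 ± 0.0717 (adjusted p = 0.180), and both groups overlapped for each. DESeq2 called Agap2 and Iqsec3, where it called 11.8% of all genes. The X-linked Iqsec2 had a Log2FC of 0.03 ± 0.0609 (adjusted p = 0.783) and Agap1 0.13 ± 0.0664 (adjusted p = 0.221). Over the alternative settings with all mice or with GH mice alone, the adjusted p of Agap2 ran from 0.0119 to 0.833 and that of Iqsec3 from 0.0268 to 0.878, always with the higher level in females.

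The level of some members followed the share of counts on long transcripts from mouse to mouse. In the 27 mice without animals 25, 33 and 39, log2 CPM centred within groups had a Pearson r with that share of 0.89 for Asap2, 0.78 for Iqsec2, 0.73 for Iqsec1, 0.51 for Asap1 and 0.48 for Agap1. It was 0.45 for Git2, 0.23 for Iqsec3, -0.01 for Agap2, -0.29 for Agap3 and -0.38 for Git1. The points share their libraries and each member adds to the totals, so these values describe the libraries. The longest transcript has 9581 bases for Agap1, 5678 for Asap2, 5633 for Agap2 and 3207 for Agap3. The part of transcript length in these r values was not tested.

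**Figure D4:**
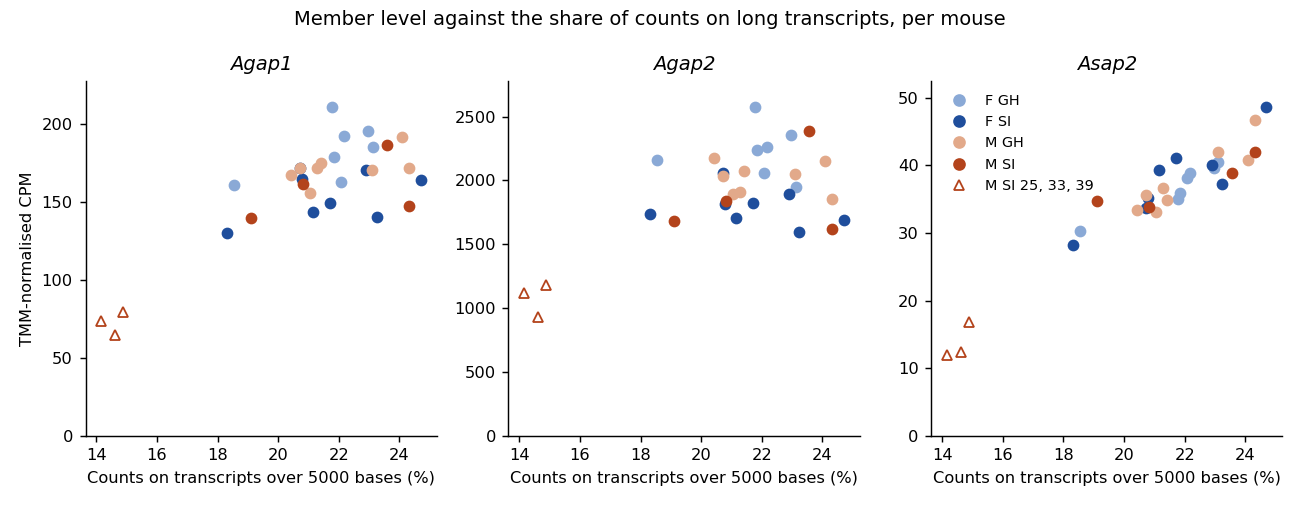
TMM-normalised CPM of Agap1, Agap2 and Asap2 against the percent of counts on transcripts over 5000 bases, with 1 point per mouse coloured by group and animals 25, 33 and 39 as open triangles. Those 3 lie at 14.2% to 14.9% and low in each panel. Among the other 27 mice Asap2 climbs along the axis (r = 0.89) and Agap2 does not (r = -0.01).

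The members fell into sets that varied together within groups. In the 27 mice, Agap1 had a Pearson r of 0.84 with Iqsec3, 0.79 with Iqsec2 and 0.72 with Agap2, and Agap2 had 0.88 with Iqsec3 and 0.82 with Git1. A second set held Iqsec1, Asap1 and Asap2, with 0.82 between Iqsec1 and Asap2, 0.77 between Iqsec1 and Asap1 and 0.66 between Asap1 and Asap2. Between Agap1, Agap2, Git1 or Iqsec3 on one side and the second set on the other, r ran from -0.43 (Git1 with Asap2) to 0.37 (Agap1 with Iqsec1). Iqsec2 varied with part of each set, with 0.64 for Asap2 but 0.18 for Asap1 and for Git1. Relative to the rest of the transcriptome, 99.8% of genes had a lower r with Agap1 than Iqsec3 did, 99.6% a lower r than Iqsec2 and 45.5% a lower r than Asap1.

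**Figure D5:**
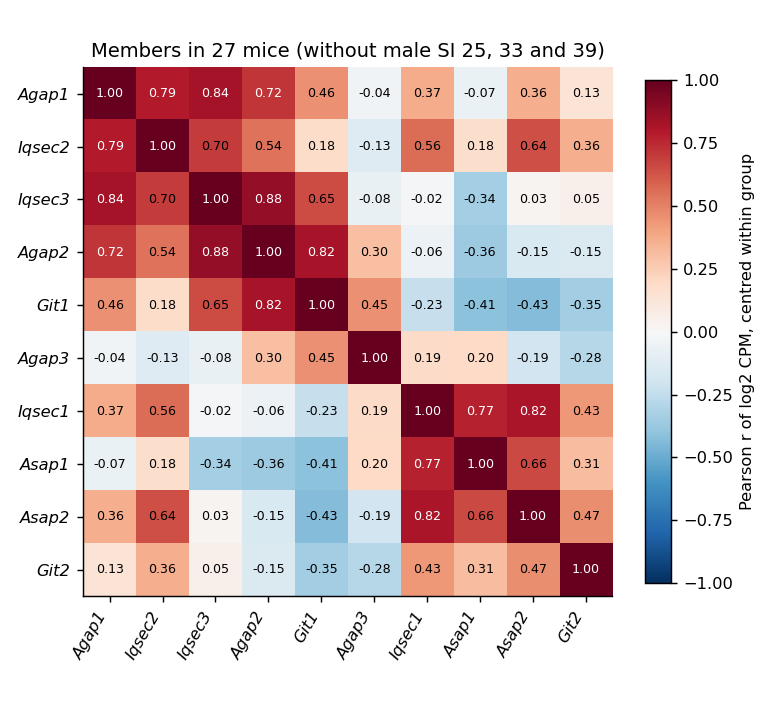
Pearson r between members of log2 CPM centred within the 4 groups, over 27 mice (SI males 25, 33 and 39 left out), with red for positive and blue for negative values. Agap1, Iqsec3, Agap2 and Git1 share positive values at the upper left and Iqsec1, Asap1 and Asap2 at the lower right. Iqsec2 has 0.54 or more with Agap1, Iqsec3, Agap2, Iqsec1 and Asap2 but 0.18 with Git1 and with Asap1. Git2 has 0.47 or less with every other member.

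The genes most like Agap1 over these 27 mice were Shank2, a postsynaptic scaffold (r = 0.92), Itsn1, an endocytic scaffold and Cdc42 exchange factor (0.92), Tbc1d16, a Rab GAP (0.92), Ttbk1, a tau kinase (0.90), and Zbtb4, a zinc finger repressor (0.89). Their transcripts had 6959 to 14012 bases. The most opposed were Hars (-0.82), Qsox1 (-0.80) and Vdac2 (-0.77), with transcripts of 1954 to 3345 bases. With all 30 mice the first 5 were Itsn1, Prrc2a, Shank2, Kif1a and Agpat3 and the last 3 were 2010012O05Rik, Myl12b and Dnajc2. Those orders rest in part on the 3 mice apart, and no pooled value is given for them.

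Other genes of the Arf pathway were read against the shares over all genes, in females 3.89% called by edgeR, 7.87% by DESeq2 and 20.2% at an unadjusted p under 0.05. Of 6 Arf GTPase genes, 0 were called in females by edgeR, with a median Log2FC of 0.03 and 1 at an unadjusted p under 0.05, and DESeq2 called Arf3. Arf6, the substrate of the IQSEC proteins at the cell surface, had 0.05 ± 0.0431 in females and 0.08 ± 0.0794 in males, and Arf1 of the Golgi 0.03 ± 0.0352 and 0.07 ± 0.0549. Of 16 other ArfGAP genes, 15 were tested in females, edgeR called 0, 5 had an unadjusted p under 0.05 and DESeq2 called Acap3. In males edgeR called 0 genes of these lists and of the 13 other ArfGEFs and 28 partners and effectors. An unadjusted p under 0.05 was found there for 0 Arf GTPases, 2 other ArfGAPs, 1 other ArfGEF and 4 partners, against 2060 of all 15833 genes, and DESeq2 called Psd3.

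Of 13 other ArfGEF genes, Psd3, an exchange factor of the EFA6 group that acts on Arf6, was the 1 called by edgeR in females, 2 had an unadjusted p under 0.05, and DESeq2 called Psd and Psd3. Psd3 had 501, 638 and 689 CPM in GH females and 412, 500 and 568.5 in SI females, with a Log2FC of -0.24 ± 0.0477 (edgeR, adjusted p = 0.0127), and its male Log2FC was -0.42 ± 0.105 (adjusted p = 0.295). Of 28 partners and effectors, edgeR called Gga3 and Dlg4 in females, 11 had an unadjusted p under 0.05, and DESeq2 called Ap3b2, Dlg4, Gga2, Gga3 and Ppfia3. Gga3, an adaptor that GTP-bound Arf recruits to sorting membranes, rose in SI females, from 38.9, 39.9 and 43.6 CPM to 41.8, 48.2 and 58.4, with a Log2FC of 0.24 ± 0.0412 (adjusted p = 0.00703). Dlg4, which encodes the scaffold PSD-95, fell in SI females, from 999, 1112 and 1294 CPM to 893, 963 and 1049, with a Log2FC of -0.18 ± 0.0417 (adjusted p = 0.0242). The groups overlapped for all 3 genes.

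Between the sexes of GH mice, the shares over all genes were 6.31% called by edgeR, 11.8% by DESeq2 and 26.4% at an unadjusted p under 0.05. Of the other ArfGAP genes, Smap1 (-0.20 ± 0.0601, edgeR, adjusted p = 0.0412), Arfgap1 (-0.19 ± 0.0545, adjusted p = 0.0409) and Smap2 (-0.24 ± 0.0582, adjusted p = 0.0199) were lower in females, and 0 Arf GTPase genes were called, with 2 at an unadjusted p under 0.05 and 0 called by DESeq2. Psd3 was higher in females by 0.26 ± 0.0737 (adjusted p = 0.0378). Of the partners, 6 were lower in females (Tamalin, Gga3, Ptk2, Pip5k1b, Pip5k1a and Ap3b2) and Dlg4 was higher by 0.16 ± 0.0493 (adjusted p = 0.0458). An unadjusted p under 0.05 (edgeR) was found for 7 of 15 other ArfGAPs, 5 of 13 other ArfGEFs and 19 of 28 partners. DESeq2 also called Arap3, Cyth2 and Grin1. Gga3 had the smallest adjusted p of the lists, with -0.26 ± 0.0441 (adjusted p = 0.00177). The GH females are shared with the housing comparison, so for Psd3, Gga3 and Dlg4 the values of the 2 contrasts are not independent.

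Cell type markers were compared with housing in females in the same fits. Of 5 astrocyte markers, 5 were below 0 and 2 were called lower, Aldh1l1 (-0.27 ± 0.0609, edgeR, adjusted p = 0.0215) and Slc1a3 (-0.24 ± 0.0495, adjusted p = 0.0140), where DESeq2 also called Gfap, and the list summed to 1723 to 2220 CPM in GH and 1361 to 1975 in SI females. Of 6 neuron markers Map2 was called lower (-0.28 ± 0.0630, adjusted p = 0.0220), the other 5 lay above 0, of which 2 had an unadjusted p under 0.05, and DESeq2 called Map2, Snap25 and Gad1. The neuron list had sums of 4798 to 5871 in GH and 5032 to 5734 in SI females. Of 5 endothelial markers Flt1 was called higher (0.14 ± 0.0385, adjusted p = 0.0496), with sums of 132 to 163 in GH and 162 to 200 in SI females. None of the other lists (dentate gyrus, CA1, CA3, oligodendrocyte, microglia, choroid plexus, thalamus and striatum) held a gene called by edgeR in females, where 8 of their 37 genes had an unadjusted p under 0.05, against 20.2% of all genes, and DESeq2 called Mbp. A direction below 0 was not particular to astrocyte markers, since 5 of 5 oligodendrocyte and 5 of 5 microglia markers shared it. It was found for 0 of 5 endothelial, 0 of 4 dentate gyrus and 0 of 7 choroid plexus markers. Between GH females and GH males, edgeR called 4 of 6 neuron markers and DESeq2 all 6, with Map2 higher in females (0.38 ± 0.0902, edgeR, adjusted p = 0.0183) and Snap25, Slc17a7 and Gad1 lower, and 2 of 5 astrocyte markers, Gfap and Aldh1l1, were higher in females. The part of these markers in the members' values was not tested.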

How the data were processed

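Per the labels, total RNA of hippocampus was made into libraries with poly(A) selection. The authors trimmed reads with Trimmomatic (version 0.39) and quantified them with Salmon (version 1.8.0), and the submitters' processing notes name the build GRCm39 and DESeq2 (version 1.24.0). The deposited table holds whole-number counts per Ensembl gene for 30 mice, each gene summing to at least 100. How the Salmon estimates were summed to genes is not given in the sources used here. The authors' own fold changes were not used.

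Counts were tested with edgeR (version 4.0.16) by its quasi-likelihood test, after filterByExpr with a minimum count of 10, TMM scaling and surrogate variables from svaseq (sva version 3.50.0, 20 permutations, seed 1), which gave 3 in females, 2 in males and 4 in all 30 mice. In males without animals 25, 33 and 39 the surrogate variables numbered 4. Each sex was fitted apart for SI against GH, and 1 model of the 4 groups gave the interaction and the sex difference in GH mice. Benjamini-Hochberg adjustment ran over all genes tested, at 0.05. SE is the Log2FC over the square root of F. Alternatives were limma-voom (limma version 3.58.1) with sample weights and no surrogate variables, and DESeq2 (version 1.42.0). Others were edgeR with no surrogate variables, a label digit as a factor, other scaling and filters, removal of trends in length and GC, and leaving out mice. Log2 CPM had a prior count of 2. The scripts were tested on simulated data. P-values measure the spread between mice, with 1 library each. The paper housed several GH mice in each cage. The labels name no cage, so GH mice that shared one were treated as separate.

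Symbols and transcript lengths came from GENCODE on NCBIM37 and RefSeq tables, with 94.1% of genes named and 91.3% with length and GC. No coordinate was carried between builds. The members and lists were chosen with earlier results of these data known. Text names all 10 members, genes of the fixed Arf pathway lists called in a sex, the 5 most and 3 least like Agap1, and markers where a list is given. Arf3, Acap3, Mbp and the pathway genes called between sexes were named after their values were seen.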

Additional observations from a re-analysis of the deposited data

Results flagged for a closer look

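Each member was checked in each of the 4 groups, 40 checks in all, for a mouse far from the rest by Dixon's ratio of gap to range, which chance passes in about 1 of 20. Asap1 was highest in SI female 45, at 98.8 CPM with the next at 79.96, and Iqsec1 was highest in the same mouse, at 321 CPM with the next at 269. Both flags fall on the library without which Iqsec3 was not called.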

How the results depend on the processing

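The 624 genes called in females became 1262 with DESeq2, 0 with no surrogate variables, 0 with the label digit as a factor, 1515 with length and GC trends removed and 90 with trends removed and no surrogate variables, an alternative chosen after seeing the data. The 2 members called in females became 5, 0, 0, 5 and 0 under those settings. They became 5 with limma-voom and no surrogate variables (5.23% of all genes) and 4 with no filter (4.18%). In males the 0 genes called became 44 with DESeq2 and 1 without animals 25, 33 and 39. The interaction's 0 became 8 with DESeq2. For the sex difference in GH mice, 1035 became 1935 with DESeq2, 16 with no surrogate variables, 9 with the label digit and 647 with no filter. They became 418 with at least 10 counts in every sample, 2146 with trends removed and 186 with GH mice only. The 0 members called became 2 with DESeq2, 2 with at least 10 counts and 3 with trends removed. With DESeq2's size factors 1 member was called, where 6.57% of all genes were. Leaving out each mouse in turn gave 88 to 1427 genes in females, 0 to 2414 in males, 0 to 385 for the interaction and 112 to 2654 for the sex difference, and 1 to 5, 0 to 6, 0 to 0 and 0 to 2 members. The lowest and highest counts came without SI female 68 and GH female 78, without SI male 27 (2414), without SI male 7 (385) and without GH males 3 and 24. The cause was not tested.

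With no surrogate variables or the label digit, Agap1, Agap2, Git1, Iqsec2 and Iqsec3 kept Log2FC values below 0 in both sexes, as under every other setting and with each mouse left out. Under the label digit the female values were -0.24 ± 0.0711 for Agap1, -0.33 ± 0.0716 for Agap2 and -0.38 ± 0.0828 for Iqsec3. The sign of Agap3, Asap1, Asap2, Git2 and Iqsec1 changed in some setting or with some mouse left out in at least 1 sex. No paired analysis was possible because each mouse number occurs in 1 group only.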
